A study of Mus musculus with 47 samples.

Results

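The creatine kinase and adenylate energy buffer genes are 6 genes, Ckm, Ckmt2, Ckb, Ak1, Ampd1 and Slc6a8, taken by name from the 24421 genes counted in single muscle fibres. All 6 had counts, and all 6 passed the filter on low counts in the comparison of genotypes. Each library was made from 1 fibre, freed with collagenase from the EDL (extensor digitorum longus), a leg muscle built mainly of fast-twitch fibres. The mice were FVB/N and 2 to 3 months old. The data held 20 C2KO fibres, from mice in which a Neo cassette replaces exons of Mybpc2 on both alleles in every cell, and 27 wild-type (WT) fibres. Mybpc2 encodes the fast isoform of myosin binding protein-C, a thick-filament protein of the sarcomere. The labels name no treatment. They name 2 C2KO and 3 WT mice, and no label ties a fibre to a mouse or gives its sex.

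During a contraction a muscle fibre uses ATP faster than mitochondria can deliver it. Creatine kinases move a phosphate group between ATP and creatine, so that phosphocreatine refills ATP beside the myofilaments and carries the phosphate out of the mitochondria. Adenylate kinase turns ADP back into ATP and AMP, and AMP deaminase removes the AMP, which keeps that reaction running. Fast-twitch fibres are known for high levels of the cytosolic enzymes of this system. Ckm is the cytosolic muscle creatine kinase, Ckmt2 the sarcomeric creatine kinase of mitochondria, and Ckb the cytosolic brain-type isoform. Ak1 is the main cytosolic adenylate kinase, Ampd1 the muscle AMP deaminase, and Slc6a8 the creatine transporter of the cell membrane.

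Fibres of 1 mouse are not replicates of a genotype, and no label ties a fibre to a mouse. Raw counts were therefore summed into 5 pools that the labels set apart. The C2KO fibres formed pool 740 and pool 2445, named after the prefix of the fibre name, with 10 fibres each. The WT fibres formed pools 1, 2 and 3 by sequencing run, with 10, 10 and 7 fibres. Libraries held 7648762 to 10517887 counts in C2KO fibres and 7769593 to 14606631 in WT fibres. Mybpc2 stood at 26.3 and 24.9 CPM (counts per 1e6 counts) in the C2KO pools, against 10050, 9843 and 8881 CPM in the WT pools. All 10 fibres of pool 740 carried Y-linked counts, all 10 of pool 2445 carried Xist counts, and the WT pools held 15 fibres with Y-linked counts, 11 with Xist counts and 1 with neither. A difference between the C2KO pools and a difference between the sexes of the mice therefore cannot be told apart. Each WT pool held fibres of both kinds, so with 3 WT mice in all the WT pools share mice and are not independent. SDs, intervals and p-values over pools thus show how far the pools spread, not how WT mice vary. Run and genotype overlapped in a single run, 0092, with 1 C2KO and 7 WT fibres. Markers of type IIb fibres (6 genes, among them the myosin heavy chain Myh4) summed to 169596 to 222996 CPM in C2KO fibres and 149351 to 227127 CPM in WT fibres. Markers of slow and type IIa/IIx fibres summed to no more than 422 CPM in C2KO fibres and 536 CPM in WT fibres.

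The promoters of the creatine kinase genes are shown because their transcripts differed most in level among the members. RefSeq start sites (build GRCm38.p6) were matched for 4 of the 6 members. The 250 bases before the start are given 5′ to 3′ on the strand of the gene. Capitals mark matches, on either strand, to CANNTG, the E-box bound by myogenic factors such as MyoD, and to TATANA, the core of the TATA box.
Ckm (chr7:19410844-19411093, plus strand): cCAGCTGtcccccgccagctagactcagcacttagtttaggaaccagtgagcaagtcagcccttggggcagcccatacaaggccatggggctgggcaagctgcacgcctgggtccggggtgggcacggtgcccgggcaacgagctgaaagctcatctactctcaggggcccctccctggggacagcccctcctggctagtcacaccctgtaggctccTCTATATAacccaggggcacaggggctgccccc
Ckmt2 (chr13:91876886-91877135, minus strand): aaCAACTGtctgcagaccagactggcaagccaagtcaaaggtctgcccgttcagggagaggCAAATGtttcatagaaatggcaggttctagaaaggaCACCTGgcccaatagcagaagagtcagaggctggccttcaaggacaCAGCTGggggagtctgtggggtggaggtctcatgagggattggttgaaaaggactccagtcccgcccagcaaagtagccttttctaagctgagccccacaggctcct
Ckb (chr12:111672339-111672588, minus strand): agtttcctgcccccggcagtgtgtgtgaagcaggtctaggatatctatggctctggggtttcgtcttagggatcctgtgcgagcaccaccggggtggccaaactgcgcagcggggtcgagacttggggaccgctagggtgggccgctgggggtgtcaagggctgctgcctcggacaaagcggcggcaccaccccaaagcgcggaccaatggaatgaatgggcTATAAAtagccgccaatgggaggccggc
The Ckm window held 1 CANNTG and 2 overlapping TATANA matches, the first beginning 33 bases before the start. The Ckmt2 window held 4 CANNTG and 0 TATANA. The Ckb window held 0 CANNTG and 1 TATANA, which began 28 bases before the start. Of 32851 mouse promoter windows of the same length, 66.2% held CANNTG and 22.6% held TATANA, so neither motif is particular to these genes.

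The 6 genes spanned more than 4 orders of magnitude in level. Genes are compared with each other only as CPM per kilobase of exon (CPM/kb). By mean CPM/kb over the 47 fibres Ckm was the 4th most abundant of all genes, and it took 3.02% of all counts. Ak1 ranked 40th, Ampd1 64th, Ckmt2 141st, Slc6a8 4972nd and Ckb 10022nd. Ckm averaged 21794 ± 1306 CPM/kb in C2KO (SD, n = 2 pools) and 20903 ± 704 CPM/kb in WT (SD, n = 3 pools). Ak1 came next, at 905 ± 85.0 CPM/kb in C2KO and 897 ± 83.7 CPM/kb in WT. Ampd1 had 652 ± 47.4 CPM/kb in C2KO and 683 ± 47.5 CPM/kb in WT. Within single fibres Ak1 exceeded Ampd1 in 19 of 20 C2KO and 25 of 27 WT fibres, so the order of these neighbours was not the same in every fibre. Ckmt2 followed with 408 ± 94.3 CPM/kb in C2KO and 294 ± 40.7 CPM/kb in WT. Ampd1 exceeded Ckmt2 in 17 of 20 C2KO fibres and in 27 of 27 WT fibres. Slc6a8 had 5.88 ± 1.59 CPM/kb in C2KO and 4.73 ± 0.404 CPM/kb in WT, and Ckb came last with 0.818 ± 0.901 CPM/kb in C2KO and 0.0985 ± 0.0927 CPM/kb in WT. In C2KO the SD of Ckb was larger than its mean.

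**Figure D1:**
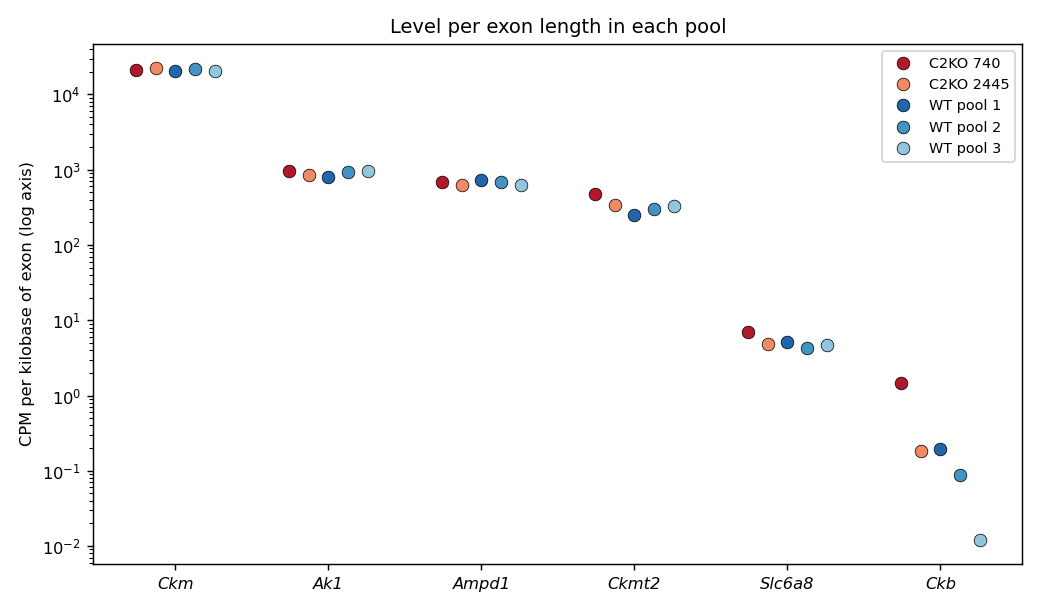
Level of each energy buffer gene per kilobase of exon (log axis), with 1 point per pool of fibres, C2KO pools in red and WT pools in blue. Ckm stands between 20304 and 22717 CPM/kb in the 5 pools, and Ckb spreads from 0.0119 CPM/kb in WT pool 3 to 1.45 CPM/kb in C2KO pool 740.

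One isoform dominated each enzyme family in both genotypes. Of the creatine kinase transcripts per kilobase (Ckm, Ckmt2, Ckb and Ckmt1), Ckm made up 98.1% ± 0.53 in C2KO and 98.6% ± 0.205 in WT (SD over 2 and 3 pools). Ckmt2 made up 1.85% ± 0.526 in C2KO and 1.39% ± 0.205 in WT. Ak1 made up 91.4% ± 0.439 of adenylate kinase transcripts in C2KO and 91.7% ± 0.638 in WT. Ampd1 made up 98.9% ± 0.343 of AMP deaminase transcripts in C2KO and 99.5% ± 0.183 in WT. Ampd3, the erythrocyte-type isoform, made up 1.02% and 0.631% of that family in the C2KO pools, against 0.396%, 0.16% and 0.311% in the WT pools. Ampd2 made up 0.3% and 0.205% in the C2KO pools, against 0.237%, 0.155% and 0.319% in the WT pools, so the order of Ampd3 and Ampd2 was not the same in every WT pool.

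None of the 6 genes passed the test between genotypes. Genes were called by edgeR's quasi-likelihood test on the pools at an adjusted p under 0.05 with a fold over 1.5, and 0.0466% of the 12863 genes tested were called, Mybpc2 among them. With so few calls in all, the absence of a member from them says little about the members. At an unadjusted p under 0.05 stood 2 members, Ckmt2 and Ckb, where 10.3% of all genes did. Of the 6 log2 fold changes 5 were positive, with a median of 0.20, beside a median of -0.000376 and 49.9% positive over all genes tested. Among the positive ones, Ckm (0.08) and Ak1 (0.03) each changed sign in 3 of 21 alternative analyses. The 6 genes were chosen with earlier results of these data known.

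**Figure D2:**
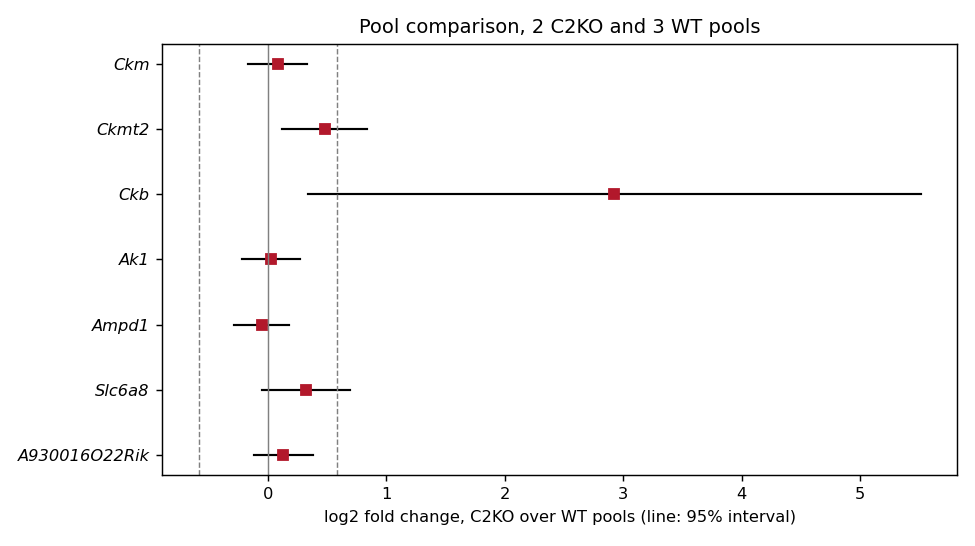
Log2 fold change of C2KO over WT pools (squares) with its 95% interval (lines) for the 6 genes and the antisense neighbour of Ckm, from 2 C2KO and 3 WT pools. The dashed lines mark a fold of 1.5 in either direction, and the intervals of Ckmt2 and Ckb lie above 0, although neither gene passed the adjusted test.

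Ckm, the major creatine kinase of muscle, was nearly level between the genotypes. It ran from 19611 to 36740 CPM with a median of 31243 CPM in the 20 C2KO fibres, and from 26090 to 37816 CPM with a median of 29335 CPM in the 27 WT fibres. The pools had 28362 and 33942 CPM in C2KO, against 29499, 30415 and 28429 CPM in WT. The C2KO pools lay on both sides of the WT pools. The log2 fold change was 0.08 (SE 0.10, 95% interval -0.17 to 0.33, edgeR adjusted p = 0.825). That interval lies within a fold of 1.5 in either direction. The sign depended on the C2KO pool, since the log2 fold change was 0.21 without pool 740 and -0.05 without pool 2445.

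Fibres of 1 pool were alike in Ckm, least so in pool 740. The coefficient of variation (CV) within pools averaged 8.35% and ran from 5.14% in WT pool 3 to 14.7% in pool 740. Of the 6053 genes with a mean of at least 10 CPM, 1.59% varied less. Ampd1 (CV 9.65%, with 4.2% of those genes varying less) and Ak1 (10.4%, with 6.81%) were also steady. Ckmt2 (32.4%, with 91.3%) and Slc6a8 (34.2%, with 92.3%) were among the more variable genes. Counting error alone would give Ckm a CV of 0.175%, Ckmt2 1.37% and Slc6a8 6.71%. It is larger for genes with fewer counts, so these shares depend in part on abundance. One C2KO fibre, 740-12, had 19611 CPM of Ckm, the lowest of the 47, where the other 9 fibres of its pool had at least 26068 CPM. The same fibre had the highest Slc6a8 level, 44.7 CPM. Without it, the Ckm log2 fold change was 0.11 (adjusted p = 0.72) and that of Slc6a8 0.27 (adjusted p = 0.565).

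Ckmt2, which passes phosphate from mitochondrial ATP to creatine, was the only one of the 6 whose pools did not overlap between the genotypes. It ran from 277 to 1229 CPM with a median of 597 CPM in C2KO fibres, and from 229 to 823 CPM with a median of 405 CPM in WT fibres. Of the 20 C2KO fibres, 16 lay above the WT median and 3 above the highest WT fibre. The pools had 677 and 535 CPM in C2KO, against 374, 444 and 487 CPM in WT. Both C2KO pools lay above the 3 WT pools, which 13.1% of all genes tested did, and another 14.5% had both C2KO pools below. The log2 fold change was 0.48 (SE 0.15, 95% interval 0.12 to 0.84), with p = 0.0174 by edgeR before adjustment and 0.424 after it.

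The Ckmt2 difference was positive under all 21 alternatives, 1 of which changed only the threshold for calls, and its size moved with the fibres compared. Among fibres with Y-linked counts, pool 740 ran from 329 to 1229 CPM with a median of 652 CPM, against a range of 229 to 615 CPM and a median of 398 CPM in 15 WT fibres. In that class 6 of 10 C2KO fibres exceeded the highest WT fibre. The log2 fold change of pool 740 over the WT pools was 0.73, with no C2KO replicate. Among fibres with Xist counts, pool 2445 ran from 277 to 850 CPM with a median of 470 CPM, against a range of 282 to 823 CPM and a median of 405 CPM in 11 WT fibres. There the log2 fold change of pool 2445 over the WT pools was 0.22, again with no C2KO replicate. In that class 1 C2KO fibre lay above and 1 below the WT range. The difference between these classes was not tested. In run 0092, the single C2KO fibre had 1229 CPM and the 7 WT fibres 356 to 823 CPM. That fibre was the highest of all 47, and without it the log2 fold change between pools was 0.42 (edgeR adjusted p = 0.44). With each fibre entered as a replicate, which ignores that fibres share mice, the value became 0.51 on the log2 scale (SE 0.13, adjusted p = 0.00494 by edgeR). That value did not reach a fold of 1.5, which 4.78% of the 10156 genes in that fit did with an adjusted p under 0.05. With run as a covariate in that fit, genotypes are compared within run 0092 alone, so the log2 fold change of 1.37 (adjusted p = 0.0974) rests on that 1 C2KO fibre against 7 WT fibres.

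**Figure D3:**
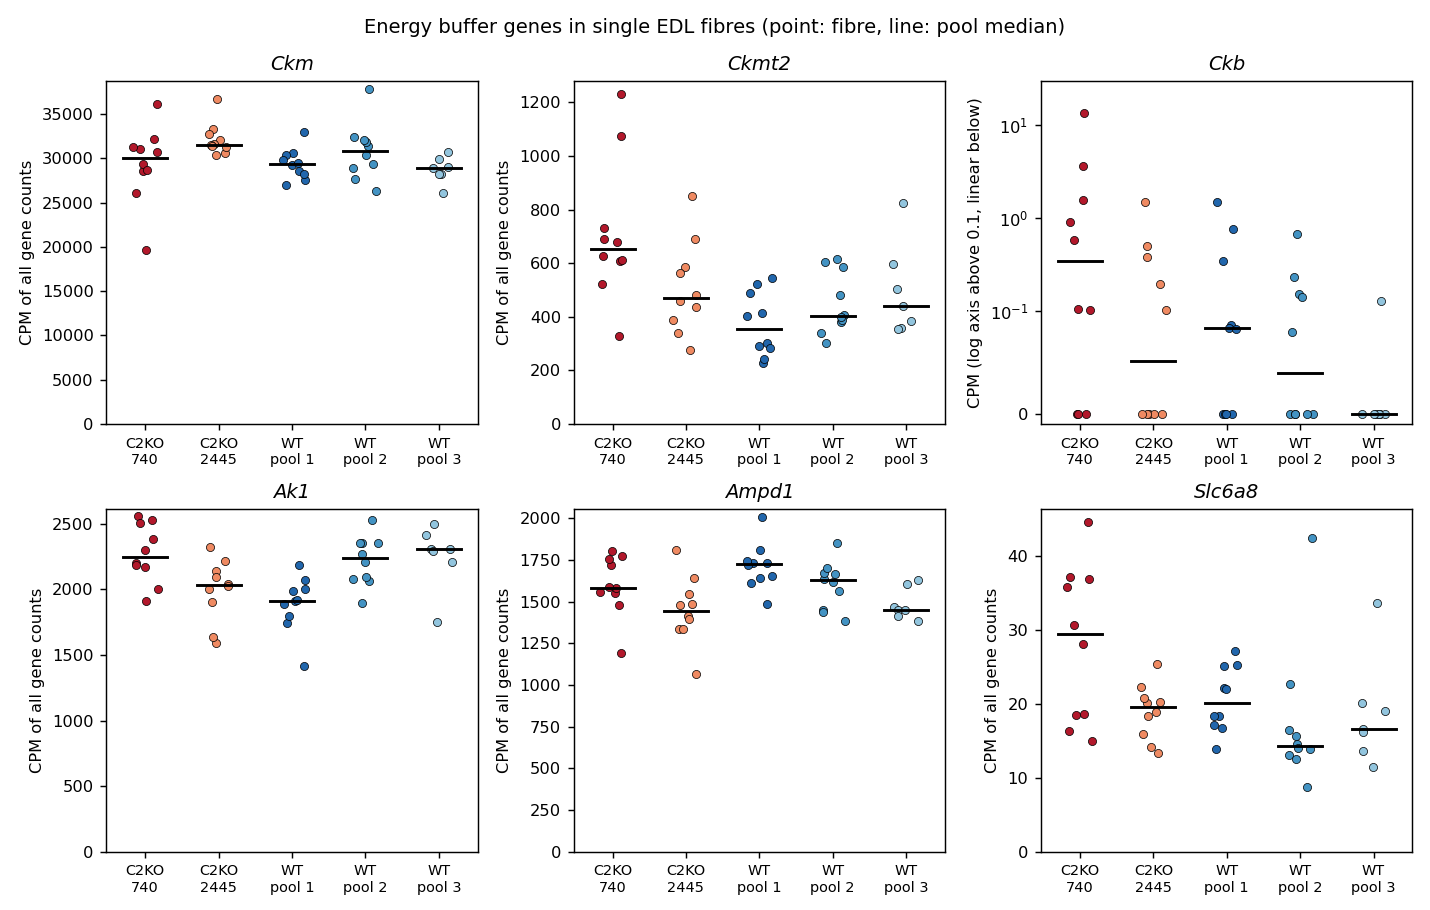
CPM of the 6 genes in each fibre (points) with the pool median (lines), by pool, with C2KO pools left of WT pools. The axis of the Ckb panel is logarithmic above 0.1 CPM and linear below, the other axes are linear from 0, and the panels show the low Ckm fibre of pool 740 at 19611 CPM and the high Ckb fibre at 13.6 CPM.

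Across fibres Ckmt2 was most like Got1, Sdhb and Acaa2. The measure of likeness was Pearson's r of log2(CPM + 1) after each pool's mean was taken off, over 47 fibres and 5890 genes of at least 10 CPM. Fibres share runs and mice, so r is given as a description. The nearest genes were Got1 (r = 0.896), an aspartate aminotransferase of the malate-aspartate shuttle, Sdhb (0.879), a subunit of respiratory complex II, and Acaa2 (0.872), an enzyme of mitochondrial fatty acid oxidation. The pools of the genotypes overlapped in all 3. Got1 had 201 and 235 CPM in the C2KO pools, against 187, 194 and 225 CPM in the WT pools (log2 fold change 0.11, SE 0.12, edgeR adjusted p = 0.788). The log2 fold change was 0.09 for Sdhb and -0.12 for Acaa2 (edgeR adjusted p = 0.729 and 0.818).

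The ratio of Ckmt2 to Got1 was therefore set out fibre by fibre, a choice made after the values were seen and given without a test. It ran from 2.31 to 3.69 with a median of 3.51 in pool 740 and from 1.92 to 2.76 with a median of 2.18 in pool 2445, against 1.47 to 2.8 with a median of 2.15 in the 27 WT fibres. In pool 740, 9 of 10 fibres exceeded every WT fibre, and in pool 2445 none of 10 did. The ratio to Acaa2 exceeded every WT fibre in 9 of 10 fibres of pool 740 and 2 of 10 of pool 2445, and the ratio to Sdhb in 5 and 1. Ckmt2 was thus high for a given level of Got1 and Acaa2 in 9 of 10 fibres of pool 740, and for Sdhb in 5 of 10. These genes were picked by likeness in the same data. How many other genes show such an offset between pools was not counted.

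**Figure D4:**
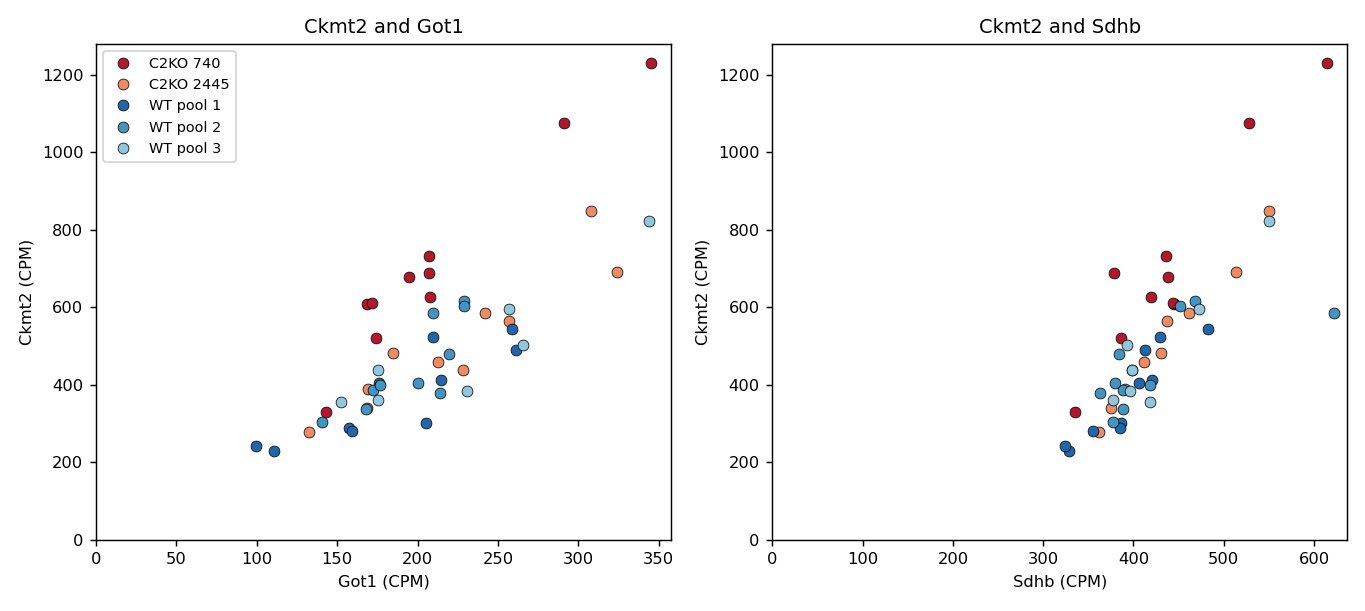
Ckmt2 against Got1 (left) and against Sdhb (right) in each fibre, both axes in CPM, with C2KO pools in red and WT pools in blue. In the left panel 9 of the 10 fibres of pool 740 have more Ckmt2 per Got1 than any WT fibre, whose highest ratio is 2.8, while the fibres of pool 2445 lie among the WT fibres.

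Ckb, the brain-type creatine kinase, was close to the limit of detection. It had 0 counts in 8 of 20 C2KO fibres and 15 of 27 WT fibres, where 3 counts, the limit that a count of 0 allows, correspond to 0.205 to 0.392 CPM depending on the library. Such limits leave out amplification, since copies made by PCR are not separate molecules, and so cover counting error only. The C2KO fibres reached 13.6 CPM with a median of 0.102 CPM, and the WT fibres 1.48 CPM with a median of 0 CPM. Summed over fibres, Ckb had 198 and 27 counts in the C2KO pools, against 37, 17 and 1 in the WT pools. Pool 740 stood apart, while pool 2445 lay within the WT pools. Of its 198 counts, 135 came from fibre 740-5 and 34 from fibre 740-2. Between pools the log2 fold change was 2.92 (SE 1.07, 95% interval 0.33 to 5.51), with p = 0.0325 by edgeR before adjustment and 0.458 after it. It was 1.75 (edgeR adjusted p = 0.563) without fibre 740-5 and 0.88 without pool 740, where 1 C2KO pool was left.

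The Ckb level moved with markers of connective tissue and vessel cells. Markers of fibroblasts and fibro-adipogenic cells (13 genes) and of endothelium (12 genes) summed to 0.309 to 5332 CPM with a median of 2.93 CPM in C2KO fibres, and to 1.27 to 391 CPM with a median of 4.49 CPM in WT fibres. Postn, Emcn, Ptprb and Vwf had no count in pool 2445, and Ptprb and Vwf had none in WT fibres. All other genes of both lists had counts in each C2KO pool and in WT fibres. Fibre 740-5 had the highest sum, 5332 CPM, and fibre 740-2 the second highest, 1211 CPM, the same order as for Ckb. Fibre 740-4, with 265 CPM of markers, had no Ckb count, and fibre 740-1 had 0.915 CPM of Ckb with 3.14 CPM of markers. Over 47 fibres Ckb and the marker sum had r = 0.751 after centring by pool, and the other 5 genes between -0.0512 and 0.114. The genes most like Ckb were Ccl7 (r = 0.815), a chemokine, Gfpt2 (0.81), an enzyme of hexosamine synthesis, and Col1a2 (0.807), a fibrillar collagen chain. Candidates needed a mean of at least 10 CPM over the 47 fibres, which these genes reached only through pool 740. They had 53.8, 99.8 and 48.5 CPM there, and no more than 1.22, 6.09 and 3.27 CPM in any other pool. Col1a2 is also among the 13 fibroblast markers summed above. Without the 13 fibres whose marker sum was over 3 times the median (7 C2KO and 6 WT), the Ckb log2 fold change was 1.67 (SE 0.78, edgeR adjusted p = 0.596). In RNA of a whole fibre, more cells of another type and more RNA per such cell cannot be told apart. Pool 740 was the only C2KO pool among fibres with Y-linked counts, so C2KO had no replicate there. In these fibres alone the Ckb log2 fold change was 4.76. In those fibres the marker sum reached 5332 CPM in C2KO and 15.8 CPM in WT.

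Slc6a8, which brings creatine into the fibre and is X-linked (mm10 chrX, 73673133 to 73682500), stood above the WT pools in 1 of the C2KO pools. It ran from 13.3 to 44.7 CPM with a median of 20.2 CPM in C2KO fibres, and from 8.73 to 42.4 CPM with a median of 16.8 CPM in WT fibres. The pools had 26.8 and 20.0 CPM in C2KO, against 20.6, 17.1 and 18.5 CPM in WT. Pool 740 lay above all WT pools and pool 2445 did not. The log2 fold change was 0.32 (SE 0.15, 95% interval -0.05 to 0.69, edgeR adjusted p = 0.526). Leaving out pool 740 brought it to 0.10 and leaving out pool 2445 to 0.52, each time with 1 C2KO pool left.

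Within pool 740 the Slc6a8 levels fell into a wide range, with 4 fibres between 15 and 18.6 CPM and 6 between 28.2 and 44.7 CPM. Among fibres with Y-linked counts, those 6 exceeded all 15 WT fibres, which ran from 8.73 to 27.2 CPM. Among fibres with Xist counts, pool 2445 ran from 13.3 to 25.4 CPM with a median of 19.5 CPM, against 13.1 to 42.4 CPM with a median of 18.3 CPM in WT. Between pools the log2 fold change was 0.53 in the fibres with Y-linked counts and -0.08 in those with Xist counts. Each of these classes held 1 C2KO pool, so C2KO had no replicate in either. In run 0092 the C2KO fibre had 37.0 CPM and the 7 WT fibres 11.4 to 33.7 CPM. The genes most like Slc6a8 across fibres were Tcp11l2 (r = 0.703), Fermt2 (0.699), a kindlin that activates integrins, and Bmpr2 (0.674), a receptor for bone morphogenetic proteins. In the pools Fermt2 had 137 and 101 CPM in C2KO, against 88.6, 68.4 and 91.6 CPM in WT (log2 fold change 0.52, SE 0.18, edgeR adjusted p = 0.442).

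Ak1, which recovers ATP from ADP (mm10 chr2, 32621758 to 32635058), differed little between the genotypes. It ran from 1592 to 2558 CPM with a median of 2154 CPM in C2KO fibres, and from 1413 to 2532 CPM with a median of 2093 CPM in WT fibres. The pools had 2192 and 2109 CPM in C2KO, against 1906, 2198 and 2232 CPM in WT, so both C2KO pools lay within the WT range. Its log2 fold change was 0.03 (SE 0.10, 95% interval -0.22 to 0.27, edgeR adjusted p = 0.954). The genes most like Ak1 were Macrod1 (r = 0.677), a mono-ADP-ribosyl hydrolase, Stac3 (0.643), a protein of excitation-contraction coupling, and Gpd1 (0.641), the cytosolic glycerol-3-phosphate dehydrogenase.

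Ampd1, which removes AMP (mm10 chr3, 103074014 to 103099720), had the only negative fold change of the 6. It ran from 1065 to 1806 CPM with a median of 1549 CPM in C2KO fibres, and from 1383 to 2009 CPM with a median of 1629 CPM in WT fibres. The pools had 1542 and 1530 CPM in C2KO, against 1721, 1585 and 1473 CPM in WT, again within the WT range. Its log2 fold change was -0.05 (SE 0.10, 95% interval -0.28 to 0.18, edgeR adjusted p = 0.884). In all, 4 C2KO fibres lay below the lowest WT fibre, 3 of them in pool 2445. Among fibres with Xist counts, 5 of 10 fibres of pool 2445 lay below all 11 WT fibres (log2 fold change between pools -0.10). Among those with Y-linked counts, 1 of 10 fibres of pool 740 lay below all 15 WT fibres (-0.0059). Each class held 1 C2KO pool, so C2KO had no replicate in either. For Ckm, Ak1 and Ampd1 the intervals lay within a fold of 1.5 in either direction, and for Ckmt2, Ckb and Slc6a8 they reached past it. The genes most like Ampd1 were Sms (r = 0.662), the X-linked spermine synthase, Kif5b (0.651), a kinesin heavy chain, and Nap1l1 (0.649), a histone chaperone. Sms had 160 and 150 CPM in the C2KO pools, against 101, 98.2 and 118 CPM in the WT pools, which is 0.55 on the log2 scale (SE 0.11, adjusted p = 0.355 by edgeR), while Ampd1 itself was level.

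The members did not form 1 block across fibres. Over the 15 pairs, r of the pool-centred levels ran from -0.357 for Ak1 with Ampd1 to 0.349 for Ckm with Ak1. Ckmt2 and Ampd1 had r = -0.339 over all fibres, with -0.558 in the 20 C2KO fibres and -0.0268 in the 27 WT fibres. Fibre 740-1, with the highest Ckmt2 level, had the lowest Ampd1 level of its pool, 1192 CPM, and fibre 2445-5, with the highest Ckmt2 level of its pool, 850 CPM, had the lowest Ampd1 level of all, 1065 CPM. All values are shares of a library's counts, so levels of abundant genes are not free of each other.

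Ckm shares sequence with an antisense gene. Ckm lies on the plus strand of mm10 chr7, 19411094 to 19421583, and A930016O22Rik on the minus strand, 19417466 to 19421417. Their exons share 451 bases, 31.9% of the 1415 exon bases of Ckm and 17.6% of the 2560 of A930016O22Rik. No other gene shared exon bases with any of the 6. Reads were counted by strand. The sources used here do not state whether the library preparation marked strand. Reads within the 451 shared bases can be assigned to 1 gene of the pair by strand alone, and reads outside them by position. Where strand is not kept, Ckm reads in those bases can be counted for A930016O22Rik. The counts of A930016O22Rik, and with them its rank and its likeness to Ckm, are therefore uncertain. Whether they hold Ckm reads was not tested. A930016O22Rik was the 12th most abundant gene per kilobase, with 16072 and 19413 CPM in the C2KO pools, against 15929, 16481 and 16222 CPM in the WT pools (log2 fold change 0.13, SE 0.10, edgeR adjusted p = 0.691). Its level followed that of Ckm from fibre to fibre (r = 0.954 over 47 fibres). With predicted genes left out, those most like Ckm were Josd2 (r = 0.774), Zfp771 (0.761) and Map2k2 (0.75).

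The ratio of A930016O22Rik to Ckm counts was narrow. It ran from 0.439 to 0.602 with a median of 0.574 in C2KO fibres and from 0.499 to 0.589 with a median of 0.548 in WT fibres. Fibre 740-12, the one low in Ckm, had the ratio of 0.439, and no other fibre of pool 740 was below 0.545. In WT the median was 0.544 in pool 1, 0.537 in pool 2 and 0.57 in pool 3, so runs of 1 genotype differed as much as the genotypes did. When the antisense counts were added to Ckm, the log2 fold change was 0.10 (SE 0.10, edgeR adjusted p = 0.777). Among the 300 genes with the highest mean CPM, 9 other genes shared at least 20% of their exon bases with a less abundant gene on the opposite strand. The ratio of partner to gene ran from 0.000354 to 0.426 with a median of 0.2. The ratio of the Ckm pair, 0.555 over all fibres, lay above that range. The lowest ratios were those of Tssk6 to Ndufa13, 0.000354 with 27.5% of the exon bases of Ndufa13 shared, and of Eml6 to Rtn4, 0.00386 with 20.4% of those of Rtn4 shared. The highest were those of A630019I02Rik to Cmya5, 0.426 with 20.7% of the exon bases of Cmya5 shared, and of Tstd2 to Tmod1, 0.381 with 44.8% of those of Tmod1 shared. What sets these ratios was not tested.

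**Figure D5:**
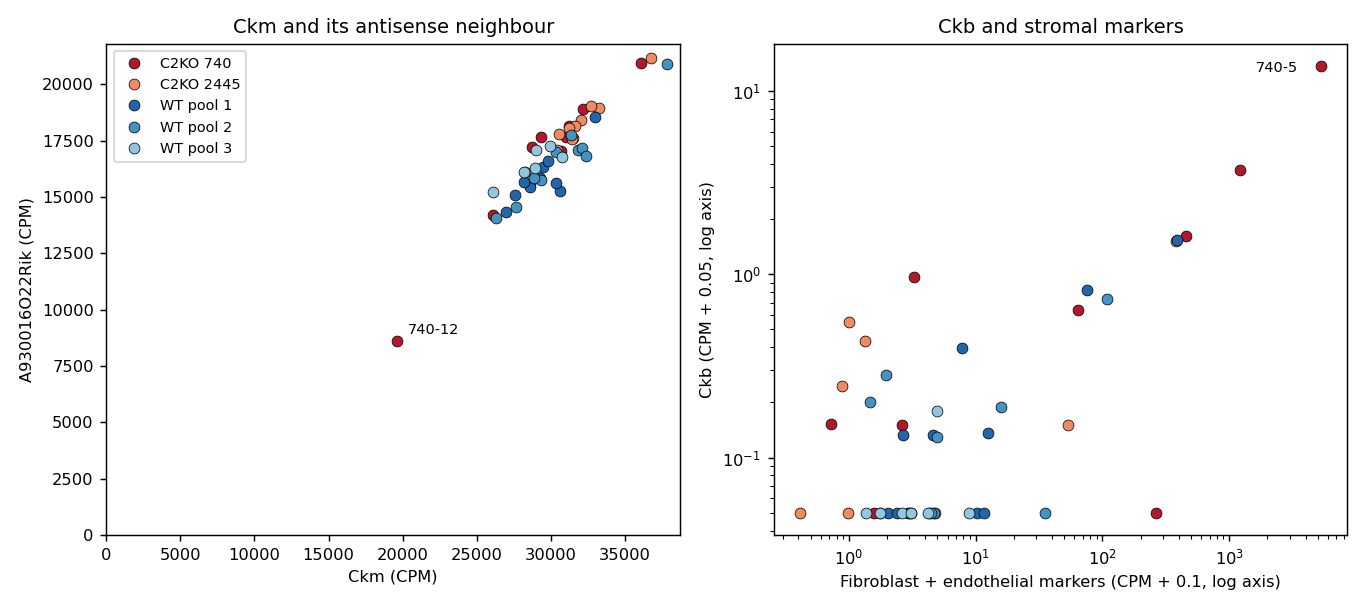
Left, counts of A930016O22Rik against Ckm in each fibre, both in CPM, with fibre 740-12 apart from the other fibres. Right, Ckb (CPM + 0.05) against the summed fibroblast and endothelial markers (CPM + 0.1), both on log axes, with fibre 740-5 at 13.6 CPM of Ckb and 5332 CPM of markers, and the lowest row holding fibres with no Ckb count.

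Other genes of creatine and adenylate handling were set beside the members, in lists chosen with earlier results of these data known. No gene of these lists was called. Of the 44 genes tested in 5 lists, members included, 8 had both C2KO pools above all WT pools, as 13.1% of all genes tested did, and 3 had both below, as 14.5% of all genes did. The counts of positive genes given per list include any of the members in it, and 49.9% of all genes tested were positive. Of the 7 genes tested for creatine synthesis, uptake and kinases 6 had positive fold changes, and the median was 0.20 on the log2 scale. Ckm, Ckmt2, Ckb and Slc6a8, all positive, are among the 7. The 1 negative gene was Gatm (log2 fold change -0.09, SE 0.48), named after its value was seen. Gamt, which completes creatine synthesis, had 32.7 and 41.4 CPM in the C2KO pools, against 38.5, 32.7 and 31.4 CPM in the WT pools (log2 fold change 0.11, SE 0.15, edgeR adjusted p = 0.824). Slc16a9, a member of the monocarboxylate transporter family, had 4.67 and 4.6 CPM in C2KO, against 3.20, 4.61 and 4.34 CPM in WT.

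Of 5 adenylate kinases tested 4 were positive, with a median of 0.03. Ak3, the GTP:AMP kinase of the mitochondrial matrix, had 98.8 and 100 CPM in C2KO, against 91.4, 89.5 and 85.8 CPM in WT (log2 fold change 0.16, SE 0.08, edgeR adjusted p = 0.55). Ak6, a nuclear adenylate kinase, had 35.6 and 39 CPM in C2KO, against 35.1, 38 and 37.2 CPM in WT. Of 15 genes of AMP and purine nucleotide turnover 10 were positive, with a median of 0.15. Adssl1, the muscle adenylosuccinate synthase of the purine nucleotide cycle, had 1029 and 1179 CPM in C2KO, against 1211, 1217 and 1143 CPM in WT. Adsl, the lyase that completes the cycle, had 158 and 170 CPM in C2KO, against 166, 181 and 171 CPM in WT. The C2KO pools lay above all WT pools for 3 of the 15, Ampd3, Aprt and Nt5c3, named here after their values were seen. Over all genes tested, 13.1% did so. Ampd3 had 29.1 and 17.8 CPM in C2KO, against 12.5, 4.64 and 8.41 CPM in WT. Its log2 fold change was 1.46 (SE 0.41, 95% interval 0.47 to 2.45), with p = 0.0108 by edgeR before adjustment and 0.414 after it.

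Of 11 genes of AMP-activated protein kinase, the energy sensor that AMP activates, 5 were positive, with a median of -0.05. The C2KO pools lay above all WT pools for Prkag2 and Cab39, and below them for Prkaa2, Prkag1 and Stk11, which were named after their values were seen. Over all genes tested, 13.1% stood above and 14.5% below in this way. Prkag2, a regulatory subunit, had 13.2 and 9.5 CPM in C2KO, against 6.65, 4.05 and 5.63 CPM in WT (log2 fold change 1.06, SE 0.25, p = 0.0044 by edgeR before adjustment and 0.395 after it). Stk11, a kinase that activates this enzyme, had 24.1 and 25 CPM in C2KO, against 28.2, 32 and 48.5 CPM in WT (log2 fold change -0.56, SE 0.23, edgeR adjusted p = 0.486). Prkab2, a regulatory subunit abundant in muscle, had 547 and 490 CPM in C2KO, against 527, 455 and 498 CPM in WT. Prkag3, the subunit of fast glycolytic fibres, had 281 and 195 CPM in C2KO, against 256, 332 and 266 CPM in WT (log2 fold change -0.26, SE 0.19, edgeR adjusted p = 0.668). Of 6 genes of mitochondrial adenylate and phosphate exchange 5 were positive, with a median of 0.12. Slc25a4, the ATP/ADP translocase of muscle mitochondria, had 4367 and 4170 CPM in C2KO, against 3713, 4121 and 4221 CPM in WT (log2 fold change 0.09, SE 0.09, edgeR adjusted p = 0.783). Vdac1, the outer membrane channel, had 1028 and 955 CPM in C2KO, against 856, 882 and 1437 CPM in WT. Slc25a5, another ATP/ADP translocase, was named after its values were seen, as the 1 gene of this list whose pools did not overlap. It had 48.8 and 43.5 CPM in C2KO, against 32.5, 24.3 and 34 CPM in WT (log2 fold change 0.61, SE 0.16, p = 0.0084 by edgeR before adjustment and 0.412 after it).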

How the data were processed

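Single EDL fibres, 20 C2KO and 27 WT, were profiled by RNA sequencing with 1 library per fibre. The authors deposited raw counts per gene, and per the file headers counted read pairs over exons of the mm10 annotation with featureCounts 1.5.2 and strand option 2. CASAVA 1.4, FastQC 0.11.2 and HISAT2 2.0.5 stand in the submitters' processing notes.

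Counts were summed into 2 C2KO and 3 WT pools and tested with edgeR 4.0.16 (glmQLFit and glmQLFTest, TMM, filterByExpr, Benjamini-Hochberg over all genes tested) in R 4.3.3. Calls needed an adjusted p below 0.05 with more than a 1.5-fold change. Pool values are TMM-scaled CPM, and fibre values are CPM of all gene counts. SE is the log2 fold change over the root of F, and intervals are 95%. These p-values reflect only how far the pools spread, which may be technical, since the WT pools hold fibres of shared mice. Fibres were classed by more than 10 counts of Y-linked genes (Ddx3y, Eif2s3y, Uty, Kdm5d) or of Xist.

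Alternatives used limma 3.58.1 and DESeq2 1.42.0, other scalings and filters, single fibres, run as a covariate, classes of fibres, and pools or fibres left out. Fibres 740-12, 740-5 and 740-1 were left out after the data were seen. Simulated counts with known changes served to check the test. No pair of libraries agreed within sampling noise.

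The members and gene lists were chosen with earlier results of these data known. Named genes were the 6 members, A930016O22Rik, Mybpc2, the 3 genes most like each member (leaving out predicted genes), and the called genes of each list, or the 2 most abundant tested ones outside the members where none was called.

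Marker lists were also fixed for other cells. In C2KO and WT fibres, highest sums were 74.4 and 52.5 CPM for satellite cells, 26.0 and 18.8 CPM for macrophages, 35.4 and 30.9 CPM for Schwann cells, 0.654 and 0.933 CPM for erythrocytes, and 61.4 and 8.00 CPM for smooth muscle and pericytes.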

Additional observations from a re-analysis of the deposited data

Results flagged for a closer look

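Single fibres that stood far from the rest of their pool were sought by Dixon's ratio, for the 6 genes and the antisense ratio in each of 5 pools, which makes 35 groups of fibres. Chance sets apart about 1 in 20 such groups where values are close to normal, and 12 fibre values were set apart here. Ckb gave 5 of them, 1 in each pool, and with many fibres at 0 counts that rate does not hold for it. They were 13.6 CPM in fibre 740-5 (others up to 3.64 CPM), 1.48 CPM in fibre 2445-1 (others up to 0.497 CPM), 1.48 CPM in fibre 35 of WT pool 1 (others up to 0.77 CPM), 0.68 CPM in fibre 58 of WT pool 2 (others up to 0.232 CPM), and 0.129 CPM in fibre 50 of WT pool 3, a single count (others at 0).

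Ckm was highest at 36740 CPM in fibre 2445-4 (others up to 33271 CPM) and at 37816 CPM in fibre 59 of WT pool 2 (others up to 32365 CPM). Fibre 59 also had 42.4 CPM of Slc6a8, where the others of its pool had up to 22.7 CPM, and fibre 62 of WT pool 3 had 33.7 CPM, where the others had up to 20.2 CPM. Ampd1 was lowest at 1192 CPM in fibre 740-1 (others from 1481 CPM), and Ak1 at 1750 CPM in fibre 50 of WT pool 3 (others from 2207 CPM). The ratio of A930016O22Rik to Ckm was lowest at 0.439 in fibre 740-12 (others from 0.545).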

How the results depend on the processing

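The 6 log2 fold changes were recomputed under 21 alternatives, 3 of them (fibres 740-12, 740-5 and 740-1 left out) chosen after seeing the data. Of 123 values, 114 kept their sign and their side of the threshold, 8 changed sign, and 1 passed the threshold. That 1 was Ckb in fibres with Y-linked counts (4.76), where pool 740 was the only C2KO pool. The alternative that dropped the fold threshold left the 6 fold changes as they were, so its values agree by construction. With so few genes called in the main comparison, staying uncalled says little about a member. Ckb was not tested with single fibres as replicates, where it did not pass the filter. Signs turned for Ckm with run as a covariate (-0.089, from the 1 C2KO fibre of run 0092) and in fibres with Y-linked counts (-0.058), and in fibres with Xist counts for Ak1 (-0.00080) and Slc6a8 (-0.080). With 1 pool left out, values ran from -0.048 to 0.21 for Ckm, from 0.30 to 0.64 for Ckmt2, from 0.88 to 3.83 for Ckb, from -0.047 to 0.068 for Ak1, from -0.11 to 0.0024 for Ampd1, and from 0.10 to 0.52 for Slc6a8. Where 1 C2KO pool is left, it is assumed to vary like the WT pools.

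The count of called genes, 6 in the main comparison, was 11 without the filter on low counts, 197 with DESeq2, 485 with edgeR and 474 with limma-voom on single fibres, 41 with run as a covariate, 286 in fibres with Y-linked counts, 3 without fibre 740-12 and 10 without fibre 740-5. It ran from 1 to 358 with 1 pool left out, with 358 without pool 2445, 15 without pool 740, 1 without WT pool 1 or 2, and 2 without WT pool 3. The causes were not tested. Depth limits Ckb alone among the 6, with a single count in WT pool 3. No paired analysis was possible because the pools share no number between genotypes, and fibre numbers that occur in both genotypes belong to different mice.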
